A study of Arabidopsis thaliana with 4 samples.

Results

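Pol V summits in untranslated exons are the positions of the deposited Pol V peak list that fall in transcribed but untranslated parts of protein-coding genes. A summit, the highest point of a peak, was counted when its base lay in an mRNA exon of a protein-coding gene of the RefSeq TAIR10.1 annotation and in no coding segment (CDS) of any such gene. Of 11478 listed summits, 467 met this rule, a share of 4.07% (95% Wilson interval 3.72 to 4.45%). Of these, 178 lay before the coding sequence, in 5′ untranslated exons, and 286 after it, in 3′ untranslated exons. The last 3 were 5′ for a gene and 3′ for a neighbour that overlaps it. The 467 summits fell in 452 genes, and annotated RefSeq untranslated exons occur in 24532 genes, so 1.84% of these genes had such a summit.

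The series compared ChIP-seq with an anti-FLAG antibody in inflorescences of untransformed Col0 plants and of plants carrying DRD1-Flag, DMS3-Flag or RDM1-Flag transgenes, with 1 library each. The signals of these 4 libraries were not analysed here. The summit list came from published ChIP-seq reads of Pol V and of a control without antibody, in 1 peak call. The list holds neither read counts nor peak widths, so the depth is unknown, no value has a replicate error, and the intervals cover counting error only. The score is a whole number from the peak caller, with no unit named, and was used here only to rank summits within the list.

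RNA polymerase V is a plant polymerase whose transcripts stay at the locus and recruit small interfering RNAs bound to ARGONAUTE proteins. The methyltransferase DRM2 then methylates cytosines there in all sequence contexts. The pathway is named RNA-directed DNA methylation (RdDM). Its best known targets are transposons and other repeats, many of them short and close to genes. Untranslated exons belong to the mRNA that Pol II makes: the 5′ part reaches from the transcription start to the start codon, and the 3′ part from the stop codon to the polyadenylation site.

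The 29 bases centred on a summit are shown for the 5 highest scores on each side, to place each summit in its exon, and for the 3 summits in genes listed for RdDM or for silencing. All are read 5′ to 3′ on the coding strand of the gene from the TAIR10.1 genome, and the capital letter is the summit base. The first 5 are 5′ summits.
AT2G47020: atttcaaatttcaaAtatatagacgccag
AT5G13980: aaccaaccttcttcTagattctcaaagct
CYP714A2: atgttattattcgtTtggaccgctgtaac
AT1G62770: ccttctcttcatttTagaaaaaataaaca
AT4G02482: ggacaatggttctaCcatggcagggcttc
The next 5 are 3′ summits.
AHL18: gtcttcttattcttTttcactttttacct
CPK21: ttttttatgtagagGtgctgggttcgagg
AT4G02760: aacggttcgcaaatGgtacgctgcggttt
UMAMIT45: gtccaaaaacttgtCcaaatccatgaagg
AT5G18990: tccgtgtttgatcgAgactttcgcttcta
The last 3 lie in listed genes, SUVH9 and QQS on the 5′ side and EPF2 on the 3′ side.
SUVH9: caaaataaacgggtGtggtgtgtttggtc
QQS: aaacctcctttcgaTctgtcagccattga
EPF2: tttttctattgtacAatttgttgggatat

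Over all 5′ summits, the 29-base windows held 31.9% A and 32.4% T on the coding strand. All bases of 5′ untranslated exons held 30.5% A and 33.7% T. Over all 3′ summits the windows held 32.1% A and 35.3% T, and all bases of 3′ untranslated exons 30.4% A and 37.1% T. On both sides the windows held slightly more A and slightly less T than the exons as a whole. The windows follow the genome and near an exon edge include bases outside the untranslated exon. Whether the differences exceed counting error was not tested.

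Untranslated exons had fewer summits than their share of the genome. They make up 12.7 Mb, or 10.7% of the determined bases, and held 36.8 summits per Mb (exact Poisson interval 33.6 to 40.3), where the whole genome held 96.5. The 3′ exons held 41.8 summits per Mb (37.1 to 46.9) and the 5′ exons 30.8 (26.4 to 35.7), so these intervals did not overlap. Coding sequence held 46.1 per Mb (43.8 to 48.4) and introns 31.1 (28.6 to 33.8). The 5′ exons were thus close to introns, and the 3′ exons lay between introns and coding sequence with an interval that overlapped that of coding sequence. Bases outside every gene and within 1000 bp upstream of a protein-coding gene held 204.8 per Mb. No test of these differences was run, since neighbouring positions of a single peak call are no replicates.

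**Figure D1:**
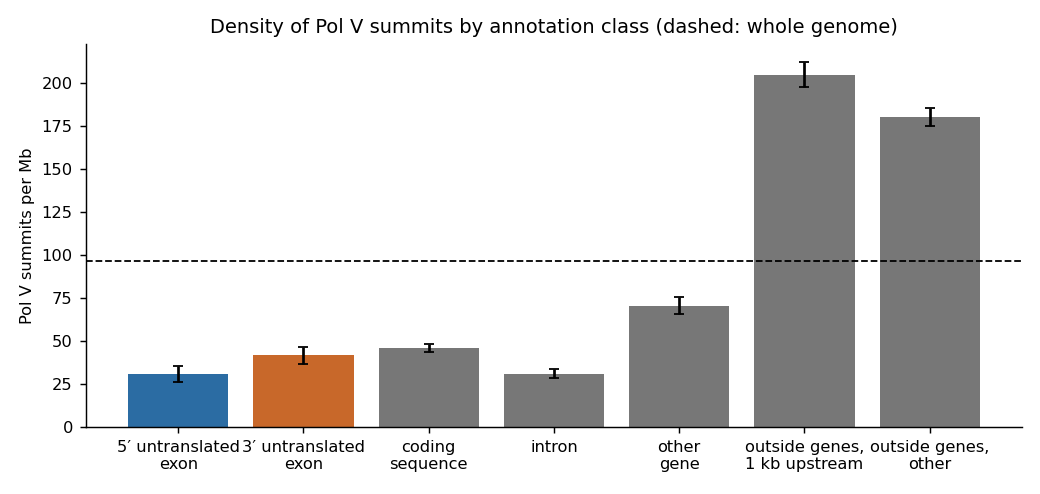
Pol V summits per Mb of determined bases in each annotation class; bars are densities, error bars exact 95% Poisson intervals for counting error, and the dashed line is the density of the whole genome. The 5′ exons (30.8 per Mb) and the 3′ exons (41.8 per Mb) stand below the genome line at 96.5, as do the other classes inside genes.

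On every chromosome the density was below that of the whole genome. It was 30.7 summits per Mb on chromosome 1 (103 summits), 45.6 on chromosome 2 (90), 39.4 on chromosome 3 (99), 40.4 on chromosome 4 (77) and 33.4 on chromosome 5 (98). The lowest value, on chromosome 1 (upper bound 37.2), and the highest, on chromosome 2 (lower bound 36.6), had intervals that just overlapped. The 3′ summits outnumbered the 5′ summits on all 5 chromosomes, from 47 against 30 on chromosome 4 to 65 against 33 on chromosome 5.

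Summit density fell on approach to a transcript start. Outside genes, it was 246.9 per Mb from 500 to under 1000 bp before a gene start and 69.7 per Mb (55.6 to 86.3) at less than 50 bp. In 5′ exons less than 50 bp from an annotated transcript start it was 34.3 per Mb (25.5 to 45.1), and from 200 to under 500 bp it was 24.0 (16.3 to 34.1), with overlapping intervals. The 7 summits at 1000 bp or more stood at 57.0 per Mb (22.9 to 117.5), an interval that includes the value just outside the gene. Seen from the coding side, density in 5′ exons was 20.9 per Mb (13.2 to 31.3) at less than 50 bp from the start codon, 28.98 (19.1 to 42.2) from 50 to under 100 bp and 20.7 (13.6 to 30.1) from 100 to under 200 bp, with overlapping intervals. It was 34.4 (25.9 to 44.8) from 200 to under 500 bp and 53.9 (37.7 to 74.6) from 500 to under 1000 bp.

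In 3′ exons density rose with distance from the stop codon. Less than 50 bp from the stop codon there were 26.8 summits per Mb (18.6 to 37.4), from 200 to under 500 bp 47.0 (37.8 to 57.7), and from 500 to under 1000 bp 86.8 (59.7 to 121.8). The 20 summits at 1000 bp or more stood at 177.6 per Mb (108.5 to 274.3), an interval that includes the densities after a gene end, on only 0.113 Mb of sequence. Toward the transcript end the density did not change steadily. It was 48.4 per Mb (37.7 to 61.3) in the last 50 bp and 34.0 (24.4 to 46.1) from 50 to under 100 bp. From 100 to under 200 bp it was 37.8 (29.7 to 47.6), and from 200 to under 500 bp 39.4 (30.6 to 49.9). It was 60.3 (39.4 to 88.3) from 500 to under 1000 bp and 72.5 (33.2 to 137.7) at 1000 bp or more. Outside genes it was 113.7 (93.6 to 137.0) at less than 50 bp after a gene end. These distances run along the genome, introns included, to the nearest codon or transcript end among the isoforms that hold the base as untranslated.

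**Figure D2:**
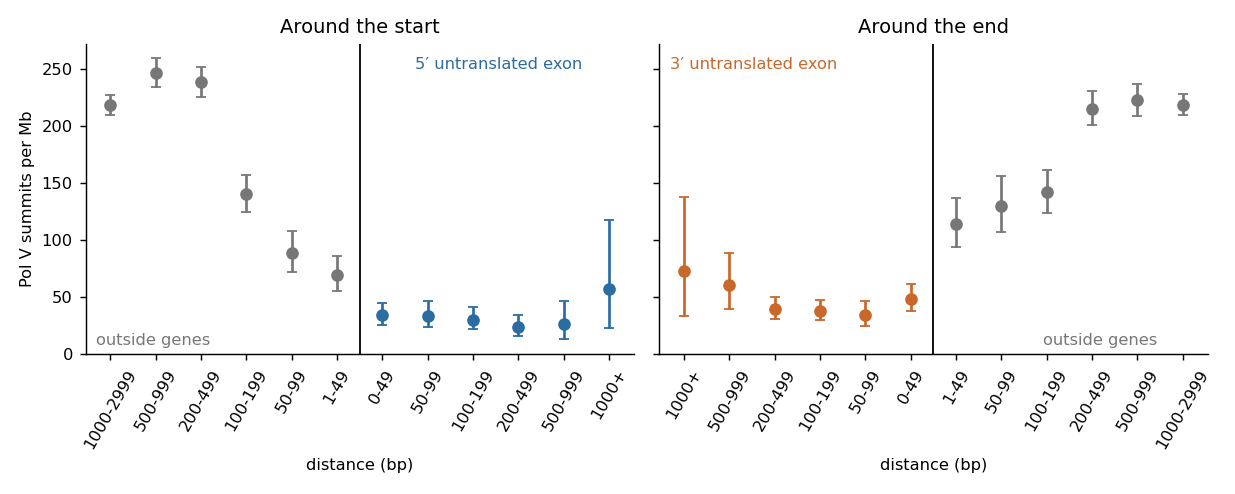
Pol V summits per Mb against distance (bp, binned, not to scale) from the transcript start on the left and the transcript end on the right; coloured points are 5′ or 3′ untranslated exons, grey points bases outside genes, and error bars exact 95% Poisson intervals. Density drops outside the gene, from 246.9 to 69.7 per Mb before the start, and in the exons it runs from 24.0 to 72.5 per Mb, with wide intervals at 1000 bp or more.

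Genes with such a summit had long untranslated regions. For the 173 genes with a 5′ summit the longest 5′ untranslated region had a median of 350 bases (quartiles 214 and 676), against 194 (109 and 327) over all 23586 genes with one. For the 277 genes with a 3′ summit the longest 3′ untranslated region had a median of 390 bases (253 and 690), against 268 (191 and 390) over 23788 genes. A longer region offers more bases in which a summit can fall, and how much of the difference that accounts for was not tested.

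Within the longest transcript that holds them, 5′ summits lay a median of 111 bp from the transcript start (order-statistic interval 93 to 131) and 268 bp from the start codon (197 to 325). The 3′ summits lay a median of 218 bp after the stop codon (181 to 248) and 145.5 bp before the transcript end (121 to 188). On both sides the outer end was nearer than the codon for most, 118 of 178 (66.3%) for 5′ and 181 of 286 (63.3%) for 3′. The share of all untranslated bases nearer the outer end was not computed. Of 5′ bases, 1.49 Mb lay less than 50 bp from a transcript start, against 1.10 Mb from a start codon. Of 3′ bases, 1.42 Mb lay that near a transcript end, against 1.27 Mb near a stop codon. Whether the summits differed from the bases in this was not tested. Most 5′ summits were in the first exon (164 of 178) and most 3′ summits in the last (273 of 286). An intron interrupted the untranslated region for 49 of the 5′ and 44 of the 3′ summits. The shares of untranslated bases in first or last exons, and in interrupted regions, were not computed.

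The place of many summits depends on the isoform. In 300 of 467 cases (64.2%, 59.8 to 68.5%) the base was untranslated in every coding transcript of the gene, which holds for 69.3% of all untranslated bases. Of these cases, 215 were in genes with 1 coding transcript, where this must hold. Such genes hold 45.2% of the bases. Of the 252 summits in genes with several coding transcripts, 85 were untranslated in all of them. For 126 summits (27.0%, 23.2 to 31.2%) another transcript of the gene starts or ends short of the summit, against 19.3% of the bases. For 50 summits (10.7%) the base was intronic in another transcript, a share not computed for all untranslated bases. A total of 118 (25.3%, 21.5 to 29.4%) were in 1 of several transcripts only, against 19.8% of the bases.

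By score, summits in untranslated exons resembled the list as a whole. Their median was 186 (159 to 212) and the range 28 to 1613, and the median of all summits was 169. The 5′ median was 182.5 (147 to 235) and the 3′ median 185.5 (153 to 220). Over all listed summits, 50.1% had a score at or above the list median, and among those in untranslated exons this held for 246 of 467 (52.7%, 48.1 to 57.2%), a share near the background. Summits in coding sequence had a median of 81 (77 to 85) and those in introns 147 (126 to 164), while those outside genes and within 1000 bp upstream had 233 (220 to 248). The median in untranslated exons was thus above that of coding sequence and the intervals did not overlap, but the difference was not tested.

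**Figure D3:**
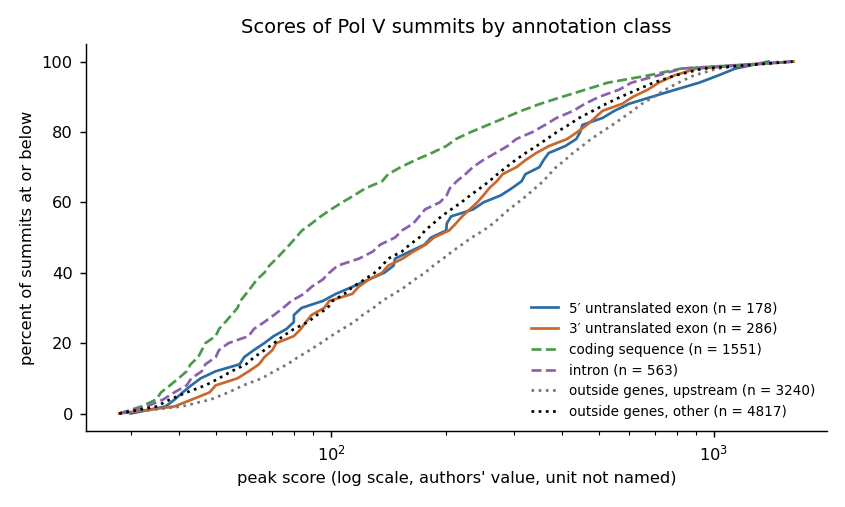
Cumulative percent of summits against peak score (log axis, the authors' value, no unit named) for 5′ and 3′ untranslated exons and other classes, with n in the legend. The curves for 5′ (median 182.5) and 3′ exons (median 185.5) run together and lie to the right of coding sequence (median 81).

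Among the 10 highest 5′ scores, which run from 948 to 1388, 4 summits lay less than 50 bp from the transcript start. The highest belongs to AT2G47020, a peptide chain release factor gene, at 19322489 on chromosome 2 (score 1388), 18 bp into an exon of 1 of 5 transcripts, and the other 4 start further in. The next is AT5G13980, a glycosyl hydrolase of family 38, at 4508421 on chromosome 5 (score 1320), 15 bp into 1 of 3 transcripts. The summit of CYP714A2, a cytochrome P450 known as a gibberellin-modifying enzyme, was at 8565913 on chromosome 5 (score 1161), 16 bp into 1 of 2 transcripts and within an intron of the other. In these 3 genes the summit was thus in an untranslated exon of a single isoform.

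Others among the 10 were untranslated on any gene model. AT1G62770, a pectin methylesterase inhibitor family gene, had its summit at 23246871 on chromosome 1 (score 1138), 35 bp before the start codon. AT4G02482, annotated as similar to a chloroplast translocase, had it at 1092020 on chromosome 4 (score 1133), 8 bp after the transcript start. AT1G71870, a MATE efflux family gene (score 1112), and AT2G34238, an uncharacterized protein (score 1025), had theirs 64 and 97 bp after the start. Each of these 4 genes has 1 coding transcript.

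Other high 5′ summits lay in genes with long untranslated regions before the coding sequence. In SOS3, which encodes a calcium sensor of the salt stress response, the summit at 8241459 on chromosome 5 (score 1095) lay 1898 bp after the start of a transcript with 3332 untranslated bases and 1552 bp before its start codon. It was untranslated in 2 of 5 transcripts. In ATMAP65-6, which encodes a microtubule-associated protein, the summit at 416377 on chromosome 2 (score 948) was 814 bp before the start codon in 1 of 2 transcripts. In AT3G44753, an uncharacterized gene whose summit also lies in AT3G44755 on the other strand, it was at 16302607 on chromosome 3 (score 999) and 977 bp before the start codon. The 5′ summit farthest from a transcript start, 2842 bp, was that of UNE15, a late embryogenesis abundant family gene, at 7881084 on chromosome 4 (score 94), in the second of 4 exons.

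The highest 3′ score, 1613, ranked 2 in the whole list and belongs to AHL18, an AT-hook DNA-binding protein gene on chromosome 3. The gene has a single exon and 1 transcript, and the summit at 22494043 lay 42 bp after the stop codon, with no other summit within 3000 bp. CPK21, a calcium-dependent protein kinase, had its summit at 2393832 on chromosome 4 (score 1192), in a last exon separated from the stop codon by an intron and present in 1 of 2 transcripts. AT4G02760, an RNI-like superfamily gene, had it at 1224056 on chromosome 4 (score 1189), 94 bp before the end of the longest transcript and untranslated in 7 of 9. AT5G18990, a pectin lyase-like gene, had it at 6341618 on chromosome 5 (score 1090), 4 bp after the stop codon.

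The other 3′ summits of the highest 10 had scores from 800 to 1100. In WRKY43, a WRKY family DNA-binding protein gene, the summit at 18957732 on chromosome 2 (score 905) lay 63 bp after the stop codon in both transcripts. In AT1G12020, an uncharacterized single-exon gene with 1262 untranslated bases at its 3′ end, it was 924 bp after the stop codon (score 896) and no base within 250 bp was soft-masked. AT2G16676 (score 845) is annotated as a Ta11-like non-LTR retrotransposon, a mobile element product, although it is filed as protein-coding. AT3G02610, a stearoyl-acyl-carrier desaturase family gene (score 825), held the summit in 1 of 2 transcripts, and AT2G20950, a phospholipase-like gene (score 800), in all 14.

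**Figure D4:**
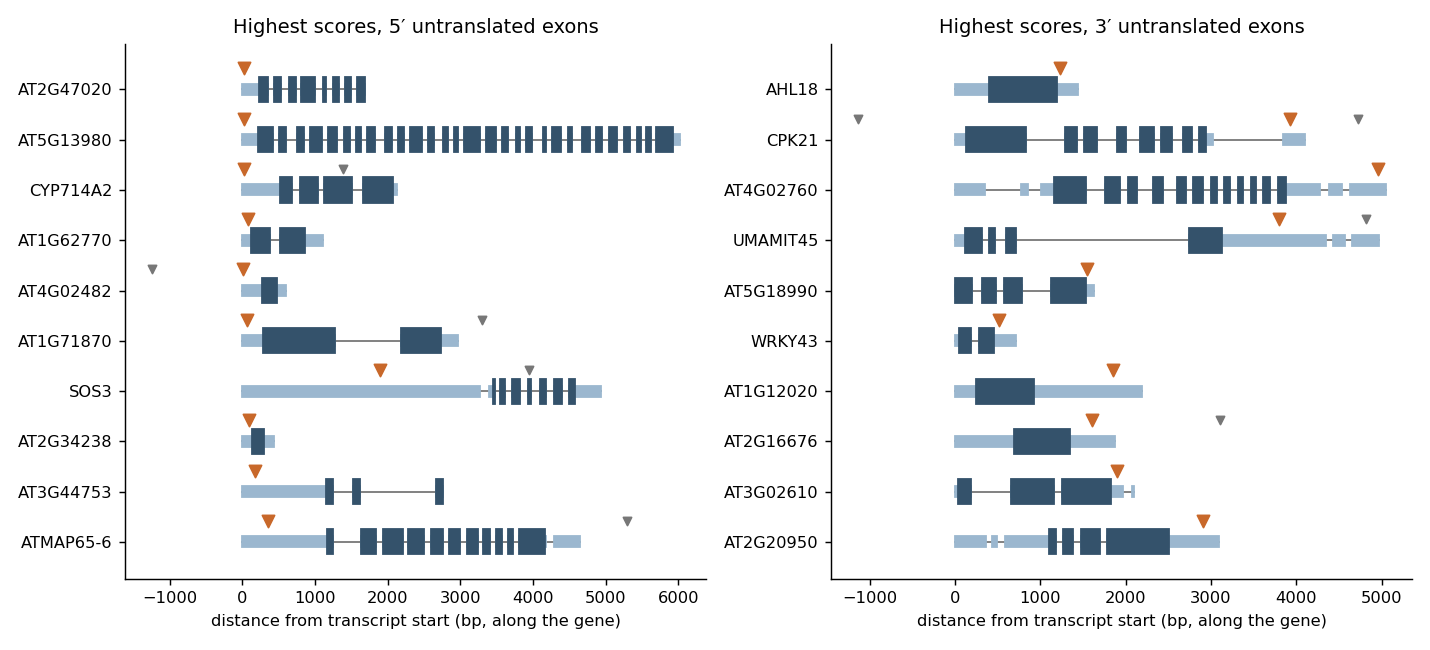
Transcript models of the 10 genes with the highest scores in 5′ (left) and 3′ (right) untranslated exons, drawn 5′ to 3′ with distance from the transcript start in bp; thick dark boxes are coding, thin light boxes untranslated, orange triangles the summit described and grey triangles other summits. In the 5′ set the summit of SOS3 lies farthest in, at 1898 bp, and in the 3′ set that of AHL18 lies 42 bp after the stop codon.

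Among genes with several such summits, 17 held 2 and ARL2 held 3. ARL2, an ARG1-like gene of the gravitropism pathway, has a transcript with 3598 untranslated bases after the stop codon, and its summits lay 984, 1930 and 3387 bp after it, with scores of 41, 672 and 90. All 3 were in 1 of 3 transcripts, and the other 2 end before them. UMAMIT45, an amino acid transporter family gene, had its summits 667 and 1691 bp after the stop codon, with scores of 1100 and 246. The first was in an intron of the other 2 transcripts, and the second untranslated in all 3. CRK40, a cysteine-rich receptor-like kinase, and MBP1, a myrosinase-binding protein of the glucosinolate defence, each had a summit at both ends. In CRK40 the scores were 801 on the 5′ side and 32 on the 3′ side, and in MBP1 602 and 118. AT1G05030, a sugar transporter-like protein of the major facilitator superfamily, had both in its 5′ exon, 406 bp apart, with scores of 753 and 62. AT2G41650 had a summit at its first base (score 250), which also lies within the overlapping gene AT2G41640. Another summit of AT2G41650 (score 763) was in an untranslated exon of both genes.

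Of 47 genes of DNA methylation and small RNA pathways, all with untranslated exons, 1 had such a summit (2.13%, 0.377 to 11.1%). This is near the 1.84% of all genes with untranslated exons. The gene is SUVH9, which encodes a reader of methylated DNA, reported together with SUVH2 to be required for Pol V to occupy chromatin. Its summit at 7826982 on chromosome 4 (score 308) was untranslated in both transcripts. In the one that spans more of the genome it lay 15 bp after the start, in the first of 3 exons, and 377 bp before the start codon across an intron. The GC content within 250 bp of it was 24.0%, and 52.9% of these bases were soft-masked. A summit fell anywhere inside the gene in 6 genes of this list, CHR38, DML1, DRM2, IBM1, SUVH2 and SUVH9. The share of all genes with a summit anywhere inside was not computed, so this count has no background.

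Of 16 genes known for silencing by methylation or for imprinting, 2 had one (12.5%, 3.50 to 36.0%), beside 1.84% of all genes with untranslated exons. QQS, a gene found only in Arabidopsis thaliana that affects starch content, had a summit at 12349100 on chromosome 3 (score 412). It lay 53 bp after the start of the longest transcript and was untranslated in all 3. EPF2, which encodes a secreted peptide that limits the number of stomata, had one at 12473718 on chromosome 1 (score 45), 87 bp after the stop codon of its single transcript. In 6 other genes of this list a summit fell inside the gene but not in an untranslated exon, a count for which no share of all genes was computed. The lists were chosen with earlier results of these data known, and counts of 1 or 2 genes carry no more than the names.

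Families were read from RefSeq product names alone, so a gene whose product name does not give its family was not counted in it. Of 2061 genes with untranslated exons whose product is named hypothetical, unknown or uncharacterized, 73 had a summit there, 3.54% (2.83 to 4.43%), beside 1.84% of all genes (1.68 to 2.02%). This class is one of product names and holds genes with known symbols, among them RAP2.6 (score 114), RAP2.9 (score 202) and XBAT34 (score 679). Among 1283 genes with kinase in the product name, 28 had one (2.18%, 1.51 to 3.14%), with scores from 32 in CRK40 to 1192 in CPK21. Among 478 RING or U-box genes, most of them encoding ubiquitin ligases, 3 had one (0.628%, 0.214 to 1.83%). MADS-box genes (0 of 90, Wilson interval up to 4.09%) and ethylene response or AP2 genes (0 of 69, up to 5.27%) had none by product name, with intervals that include the share of all genes. RAP2.6 and RAP2.9 are AP2-related by symbol, so the 0 for AP2 genes holds for the search of product names only. Whether a family differed from all genes was not tested, and families differ in the length of their untranslated exons.

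Of 128 genes with disease resistance in the product name, 6 had a summit in an untranslated exon (4.69%, 2.17 to 9.85%). The share of all genes was 1.84%, and the difference was not tested. RLM3, a TIR domain gene of fungal resistance, had it at a score of 764, 245 bp before the start codon and untranslated in 8 of 19 transcripts. RRS1, an immune receptor with a WRKY domain, had it 912 bp after the stop codon (score 123). AT1G63750 had a pair in its 5′ exons, with scores of 66 and 67. The lowest score was 32, in AT5G41750, and AT5G24990 (593) is named only for its likeness to an enhanced disease resistance protein.

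Of 199 cytochrome P450 genes, 6 had one (3.02%, 1.39 to 6.42%), an interval that includes the 1.84% of all genes. CYP714A2 (score 1161) and CYP708A3 (score 369) held it on the 5′ side. CYP82F1 (229), CYP705A4 (99), CYP706A6 (82) and CYP71B4 (68) held it on the 3′ side, with lower scores. Of 334 ribosomal protein genes 3 had one (0.898%, 0.306 to 2.61%), an interval that also includes the share of all genes. Among them was RPS28 on the 5′ side with a score of 660.

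Of 111 homeodomain genes, 2 had one (1.80%, 0.496 to 6.33%), near the 1.84% of all genes. KNAT2, a homeobox gene of the shoot meristem, had a 3′ summit with a score of 233, and HB-7 (AT5G46880), also a homeobox gene, one of 61. Of 129 bHLH genes, 2 had one (1.55%, 0.426 to 5.48%), AT2G46810 (score 132) and bHLH104. In bHLH104, a regulator of iron uptake, the 5′ summit had a score of 449 and lay 40 bp after the start of 1 of 3 transcripts. WRKY42 had a 5′ summit of 452, MYB109 a 3′ summit of 215 and YAB5, a leaf polarity gene, a 3′ summit of 44. Of 41 genes with a transposon-like product name, a search added after the values were seen, 3 had one (7.32%, 2.52 to 19.4%). This stands beside 1.84% of all genes and was not tested. All 3 are Ta11-like non-LTR retrotransposon genes with 3′ summits, AT2G13450 (382), AT3G57587 (786) and AT2G16676 (845).

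Sequence marked as repeats or low-complexity was more common around these summits than around untranslated bases in general, mainly on the 3′ side. Within 250 bp, a mean of 26.7% of the bases were soft-masked in the RefSeq genome, the lower-case marking of repeats and low-complexity sequence (25.3 to 28.1%, SD 15.1, n = 467). Averaged over windows around every untranslated base the share was lower. The 3′ summits had 26.9% where 3′ bases have 19.8%, and the 5′ summits 26.5% (24.5 to 28.5%) where 5′ bases have 24.7%. The share in all exon bases was thus below the interval for the 3′ side but within it for the 5′ side. The summit base itself was soft-masked in 118 cases (25.3%), as were 25.2% of untranslated bases. Pseudogenes, under which this annotation also files transposon genes, were within 1000 bp of 32 summits (6.85%, 4.90 to 9.51%), against 2.21% of untranslated bases. The summits had a mean of 96.4% unique 50-base sequences nearby (95.8 to 97.1%), against 98.4% around untranslated bases.

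Cytosines are the substrate of RdDM. GC content within 250 bp was 34.2% (33.8 to 34.7%, SD 5.06), against 35.6% around all untranslated bases, 32.5% at all summits and 40.8% at coding summits. Counted on both strands, CHH cytosines, where H is A, C or T, stood at 24.8 per 100 bp (24.5 to 25.1), against 25.9 around untranslated bases. CHG cytosines stood at 4.29 (4.14 to 4.45) against 4.88, and CG cytosines at 5.13 (4.91 to 5.35) against 4.80. CG was thus the context in which these summits stood above untranslated exons. This lay on the 3′ side, at 4.71 (4.47 to 4.96) against 4.04, while the 5′ side stood at 5.74 (5.34 to 6.13) against 5.69. It was not particular to untranslated exons. Summits in coding sequence had 6.53 CG cytosines against 5.71 around all coding bases, and those in introns 4.50 against 4.02. Methylation itself was not analysed here.

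Another summit lay within 3000 bp of 279 of the 467 (59.7%, 55.2 to 64.1%), near the 63.4% of all summits. The nearest summit was a median of 1906 bp away (1692 to 2301) and outside every gene in 284 cases (60.8%). In 372 of the 452 genes the summits in untranslated exons were the only summits of the gene. The same share was not computed for genes with summits of other classes. Relative to another protein-coding gene, 67 of 286 3′ summits (23.4%, 18.9 to 28.7%) lay within 1000 bp before its start, where 30.4% of 3′ bases lie. For 24 of 178 5′ summits (13.5%, 9.23 to 19.3%) this held as well, where 16.7% of 5′ bases lie. A total of 17 summits (3.64%) also lay in another annotated gene, 13 of them in a gene on the other strand. The share of untranslated bases for which this holds was not computed.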

How the data were processed

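The only values used are the deposited peak scores of 11478 Pol V summits. The authors aligned published Pol V and no-antibody reads to TAIR10 with Bowtie 1.0.0 (unique reads, at most 2 mismatches), removed duplicates with SAMtools 0.1.19, and used MACS2 for peaks (q-value 0.05, enrichment over 2-fold). The score is deposited without a unit. Unique mapping loses repeats, and 1 blank record was left out. No signal of the 4 FLAG libraries was analysed, and 0 other columns of values per sample were present.

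Summits (column 3, 1-based) were placed on all coding transcripts of RefSeq TAIR10.1, whose chromosomes contain every summit (0 outside). Placement was tested on made-up genes. Windows reached 250 bp to each side. Intervals are 95% Wilson (shares), exact Poisson (densities), order-statistic (medians) and normal (means). No significance test was run. The members, lists and rules were chosen with earlier results of these data known. Named genes are the 10 highest scores on each side, the 6 genes with several such summits and the highest summed score, the summit farthest from the transcript start (5′) or stop codon (3′), and listed genes; family members, with product names from the annotation, were named after their values were seen. Alternatives are given at the end. Python 3.11.15, NumPy 2.4.6, pandas 2.3.3, SciPy 1.17.1 and matplotlib 3.10.9 were used.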

Additional observations from a re-analysis of the deposited data

How the results depend on the processing

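The 12 main values were recomputed under 15 alternatives, and 130 of 142 recomputed values lay within the 95% interval of the main value, those without each chromosome in turn among them. With 1 coding transcript per gene the share of summits in untranslated exons was 3.30%, and with only those at least 50 bp from the codon and the transcript end it was 2.72%, where the median distance was 152.5 bp from the transcript start (5′) and 258 bp from the stop codon (3′). Density was 19.4 per Mb with scores at or above the list median, 31.9 with summits within 1000 bp merged and 31.3 with at least 90% unique 50-mers, all of which remove summits. Merging gave a median score of 215. The share with a neighbour was 32.1% among high scores, 47.7% after merging, 24.6% within 1000 bp and 79.7% within 6000 bp. Density was not recomputed where only summits were filtered by gene or edge, nor the score among high scores, nor the isoform share with 1 transcript per gene. No paired analysis was possible because each line has 1 library and the list has no replicates. Peak width and read depth limit how finely a summit can be placed at an exon edge.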

Other observations

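The 3′ summit farthest from its stop codon, 5043 bp along the genome, is that of the F-box gene AT1G11270 at 3780672 on chromosome 1 (score 141), which overlaps the sugar transporter gene STP1. Only 68.3% of the 50-mers within 250 bp of it are unique. The 3 summits that are 5′ for a gene and 3′ for its neighbour had scores of 36 (CYP5 and ELF4-L1), 630 (AT3G28900 and AT3G28899) and 763 (AT2G41640 and AT2G41650).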
